A study of Anopheles arabiensis with 20 samples.

Results

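Asendabo (ASN) and Tolay (TOL) are field populations of the malaria mosquito *Anopheles arabiensis* from south-western Ethiopia, and they are compared here gene by gene. All 4 ASN and all 4 TOL libraries were taken by their titles, 8 of the 20 libraries in the count table, and the titles place these 8 in a single sequencing run. Both populations were raised to adulthood from larvae gathered in the field, and the labels describe both as resistant to the pyrethroid deltamethrin and to DDT. No insecticide exposure of the sequenced mosquitoes is described in the labels. A library represents 10 pooled whole females, 3 to 5 days old and never blood-fed, whose RNA was selected by polyA and sequenced as stranded pairs of 125 bp. The other 12 libraries are 4 each from a further resistant field population, Chewaka (CHW), and from the susceptible laboratory strains Sekoru (SEK) and Mozambique (MOZ), and they served to estimate the spread between libraries and as a reference for levels. Larvae were reared at their own site, so the population, its larval habitat and its rearing room cannot be told apart.

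Pyrethroids and DDT act on the voltage-gated sodium channel of nerve cells, and resistance in *Anopheles* is known to arise from changes in that channel, from faster breakdown of the insecticide by enzymes such as cytochromes P450 and glutathione S-transferases, and from changes in the cuticle. Populations that share a resistance phenotype can still differ in the expression of these and of unrelated genes. The nuclear genes of the table carry only AARA identifiers, which neither the file nor the reference pairs with gene names, so no role is given for any of them and no gene family is counted. The genes of the mitochondrion are named. They encode subunits of the respiratory chain (NADH dehydrogenase, cytochrome b, cytochrome oxidase) and of ATP synthase, and the ribosomal and transfer RNAs used to translate them. In whole bodies, fewer cells of a type and less RNA per cell cannot be told apart.

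The 8 libraries held 15752014 to 21516390 counts, and 12086 to 12222 genes were detected in each. No pair within ASN or within TOL looked like a library deposited again, as each pair gave a chi-square of 22.5 or more for each degree of freedom. Not every library lay closest to its own group. The distance between libraries was taken as the root mean square difference of log2 CPM (counts scaled to library size) over the 11018 genes tested. ASN replicates 1, 2 and 3 lay 0.36 to 0.46 from each other. ASN replicate 4 lay 0.49 to 0.60 from them and 0.40 from TOL replicate 4, and among all 20 libraries these were each other's nearest. TOL replicate 1 lay 0.62 to 0.67 from the other TOL libraries, which were 0.45 to 0.48 apart. Over all pairs the median distance was 0.475 within ASN, 0.548 within TOL and 0.546 between them. ASN replicate 4 and TOL replicate 4 also had the largest scaling factors of their groups, 1.001 and 0.990, against 0.835 to 0.902 in the other ASN libraries and 0.750 to 0.806 in the other TOL libraries. Its part in the results below was not tested, nor was a mixed pool or an exchanged tube, which the labels do not mention. The counts of calls are therefore given with and without single libraries.

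Few genes passed the rule for a call between the populations, and most of those that did were higher in Asendabo. With edgeR's quasi-likelihood test, 153 of 11018 genes (1.39%) were called at a Benjamini-Hochberg adjusted p under 0.05 and at least a 2-fold change. Of these, 115 were higher in ASN (1.04% of genes tested) and 38 were lower (0.345%). Smaller differences were more common. Without the fold requirement 617 genes were called, 439 higher and 178 lower, and 2206 (20%) had an unadjusted p under 0.05. For the same rule the test called 401 genes (3.64%) between ASN and CHW and 386 (3.5%) between TOL and CHW, although CHW replicates 3 and 4 came from another sequencing run and run was not a term of the model. The median log2 fold change was 1.33 over the higher genes, with a range of 1.001 to 3.85, and -1.40 over the lower genes, with a range of -5.29 to -1.01. Over all genes tested the median was -0.02 and the median absolute value 0.18. Scaling by library totals alone gave 155 higher and 20 lower genes and shifted the all-gene median by 0.11, so directions are relative to most other genes.

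The higher genes were also more abundant than the lower ones. Their median level over the 8 libraries was 54.8 CPM, against 9.71 CPM for the lower genes and 15.3 CPM for all genes tested. Of the genes at 100 CPM or more, 43 of 1286 (3.34%) were called, 36 of them higher in ASN and 7 lower. Below 1 CPM, 9 of 1015 genes (0.887%) were called. In 111 of the 153 called genes (72.5%) the ASN and TOL libraries did not overlap in log2 CPM, 78 of the higher and 33 of the lower genes. The same was true of 1254 of all genes tested (11.4%), in 728 with ASN above (6.61%) and in 526 with ASN below (4.77%). In the other 42 called genes the populations overlapped. These counts changed most without ASN replicate 1, 3 or 4, as given below.

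**Figure D1:**
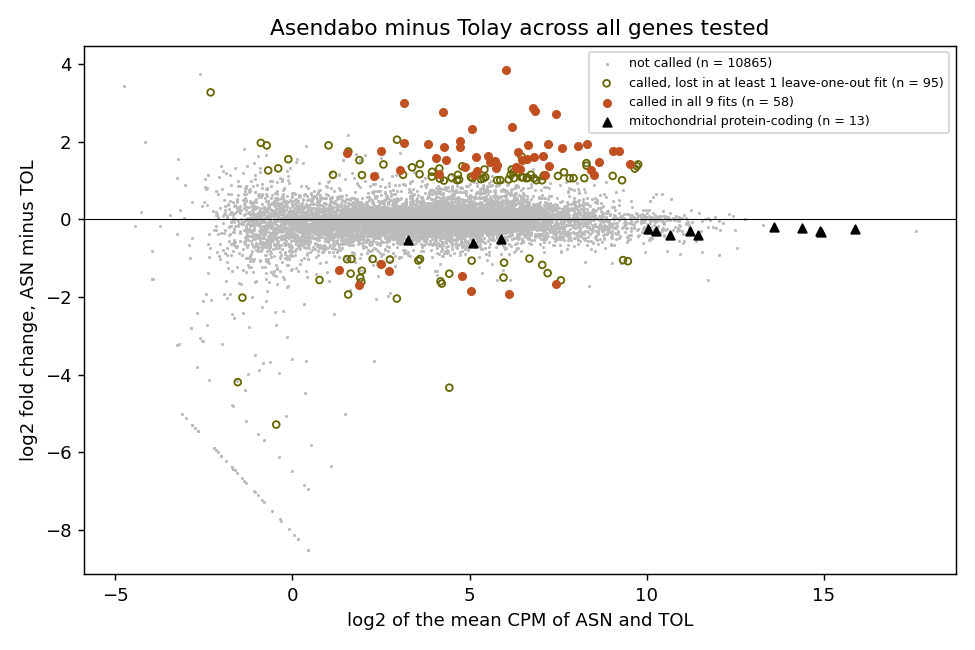
Each point is 1 of the 11018 genes tested, with its level in CPM (mean of ASN and TOL, log2) on the horizontal axis and the log2 fold change of ASN minus TOL on the vertical axis. Filled circles are the 58 genes called in all 9 fits, open circles the other 95 called genes, and triangles the 13 mitochondrial protein-coding genes, all of which lie between -0.60 and -0.18.

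The test was repeated 8 times, each time without 1 ASN or TOL library, and a gene was said to hold when it was called in the same direction with all libraries and in each of the 8 repeats. Of the 153 calls, 58 held (0.526% of genes tested). These were 50 of the 115 higher genes (0.454% of genes tested and 43.5% of the higher calls) and 8 of the 38 lower genes (0.0726% and 21.1%). With TOL replicate 1 left out of every fit, an alternative chosen after seeing the data, 21 genes held, 20 of them among the 58, and with ASN replicate 4 left out of every fit 141 held, all 58 among them. No called gene was called in the opposite direction in any repeat, which is fixed in part because each repeat shared all libraries but 1 with the full fit. A further 24 genes were lost in exactly 1 repeat, 16 of them in the repeat without ASN replicate 1 and 6 in that without ASN replicate 3, and 45 were lost in 4 or more repeats. Genes of low abundance held least often. None of the 9 called genes below 1 CPM held, against 10 of 30 between 1 and 10 CPM, 29 of 71 between 10 and 100 CPM and 19 of 43 above that.

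The number of calls depended most on the ASN libraries. Without ASN replicate 1 the test called 83 genes (0.753%) and without ASN replicate 3 it called 86 (0.781%), of which 77 and 85 were among the 153. Without ASN replicate 4 the number rose to 271 (2.46%), which included 146 of the 153 and 125 further genes, 76 higher and 49 lower in ASN. Without ASN replicate 2 it was 1.12% of genes, 96 higher and 27 lower. Without TOL replicates 1 to 4 in turn it was 122 (1.11%), 135 (1.23%), 118 (1.07%) and 155 (1.41%). With ASN replicate 4 and TOL replicate 4 both left out, an alternative chosen after seeing the data, 269 genes were called, 177 higher and 92 lower, and they included all 58 genes that held.

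**Figure D2:**
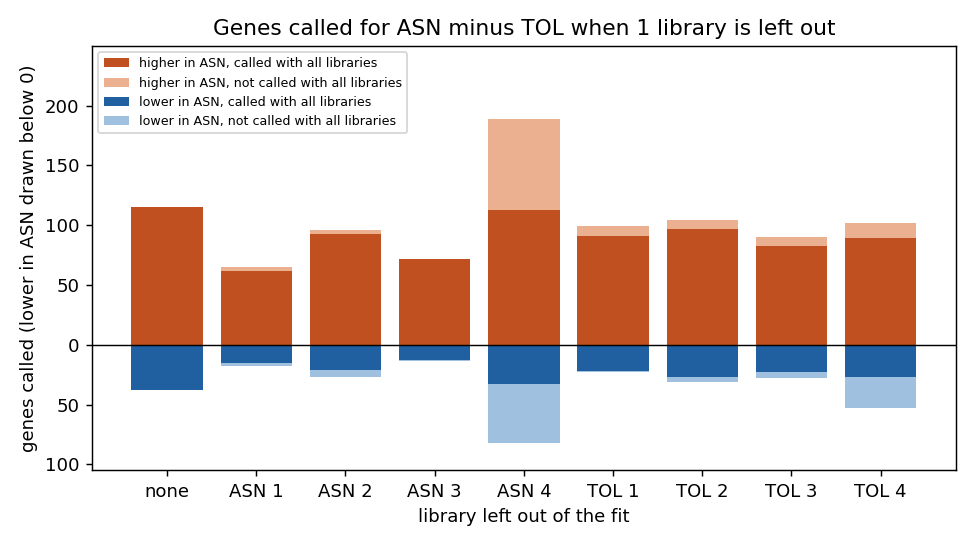
Bars give the number of genes called for ASN minus TOL in each fit, with genes higher in ASN above 0 and genes lower in ASN below 0, by the library left out. Dark parts are genes also called with all libraries and light parts are genes that were not. The count fell to 83 without ASN replicate 1 and reached 271 without ASN replicate 4.

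The 58 genes also depended on where the spread between libraries was estimated. In the fits above, the 12 CHW, SEK and MOZ libraries entered that estimate. With the 8 ASN and TOL libraries alone, edgeR called 118 of the same 11018 genes (1.07%), 54 of them among the 58. When 1 further library was left out of those 8, the test called 0 genes without ASN replicate 2 or 3 or TOL replicate 1, 2 or 3, so no gene held. An unadjusted p under 0.05 was found for 1624 to 2011 genes in those 5 repeats. It called 13 genes (0.118%) without ASN replicate 1, 81 (0.735%) without TOL replicate 4 and 267 (2.42%) without ASN replicate 4. Each of the 58 genes kept at least a 2-fold change in the same direction and an unadjusted p under 0.05 in all 9 fits of the 8 libraries. An unadjusted p under 0.05 in all 9 was found for 1245 of the 11018 genes, and the 58 had been chosen on these same libraries. With all 20 libraries, 76 genes held in DESeq2 and 47 in limma with voom, which included 58 and 44 of the 58. With the 8 libraries alone, their own filter and the replicate number as a block, edgeR called 63 genes, 33 of the 58 among them.

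Most of the 50 genes that held and were higher in ASN were highest in ASN replicates 1 to 3. Their mean log2 CPM was 6.995 in ASN replicate 1, 6.51 in replicate 2, 6.66 in replicate 3 and 5.37 in replicate 4. In TOL it was 4.75, 4.90, 4.67 and 4.62 in replicates 1 to 4. The ASN values thus lay above all TOL values, but ASN replicate 4 lay closer to TOL than to the rest of ASN. ASN replicate 4 was the lowest ASN library in 48 of the 50 genes, and in 106 of all 115 higher genes, whereas it was lowest in 32.6% of all genes tested. In 43 of the 50 genes it lay nearer to the TOL mean than to the mean of ASN replicates 1 to 3. It was above every TOL library in 42. The median gap over the TOL mean was 1.86 on the log2 scale for ASN replicates 1 to 3 and 0.56 for ASN replicate 4. Summed over the 50 genes, the level was 13168, 9595 and 10416 CPM in ASN replicates 1 to 3, 4582 CPM in ASN replicate 4, and 2844 to 3179 CPM in the TOL libraries.

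In depth and ribosomal RNA, ASN replicate 4 lay within the range of the other ASN libraries. It had 18327371 counts, within their range of 17386535 to 21516390, and its share of the ribosomal RNA ASK67_gr02 was 15.8%, within 15.5% to 16.9%. Its mitochondrial protein-coding share, 14.7% of counts, was above the 10.8% to 14.5% of the others.

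The 50 genes covered a wide range of abundance and of size of change. Their mean level over the 8 libraries ran from 2.89 to 733 CPM with a median of 69.1 CPM, and 18 of them were at 100 CPM or more. Their log2 fold changes ran from 1.12 to 3.85 with a median of 1.63 and a median standard error of 0.263. Of the 50, 9 changed at least 4-fold. In 42 of them the populations did not overlap, against 6.61% of all genes tested with ASN above, which the choice of the genes fixes in part. In the other 8, ASN replicate 4 was the library that fell to the TOL range. The smallest change of any of the 58 genes in any repeat was a log2 value of 1.02. A value under 1 was not possible, as each repeat had to call the gene at 2-fold or more.

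The 8 genes that held and were lower in ASN had a mean log2 CPM of 2.65, 2.77, 2.89 and 3.51 in ASN replicates 1 to 4, and of 4.49, 4.64, 4.58 and 4.39 in TOL replicates 1 to 4. In all 8 genes every ASN library lay below every TOL library, against 4.77% of all genes tested. The genes were chosen as lower in these same libraries, which fixes this in part. ASN replicate 4 was the highest ASN library in 6 of the 8, against 33.1% of all genes tested. Their log2 fold changes ran from -1.93 to -1.15, so none reached 4-fold, and their levels from 2.49 to 174 CPM.

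**Figure D3:**
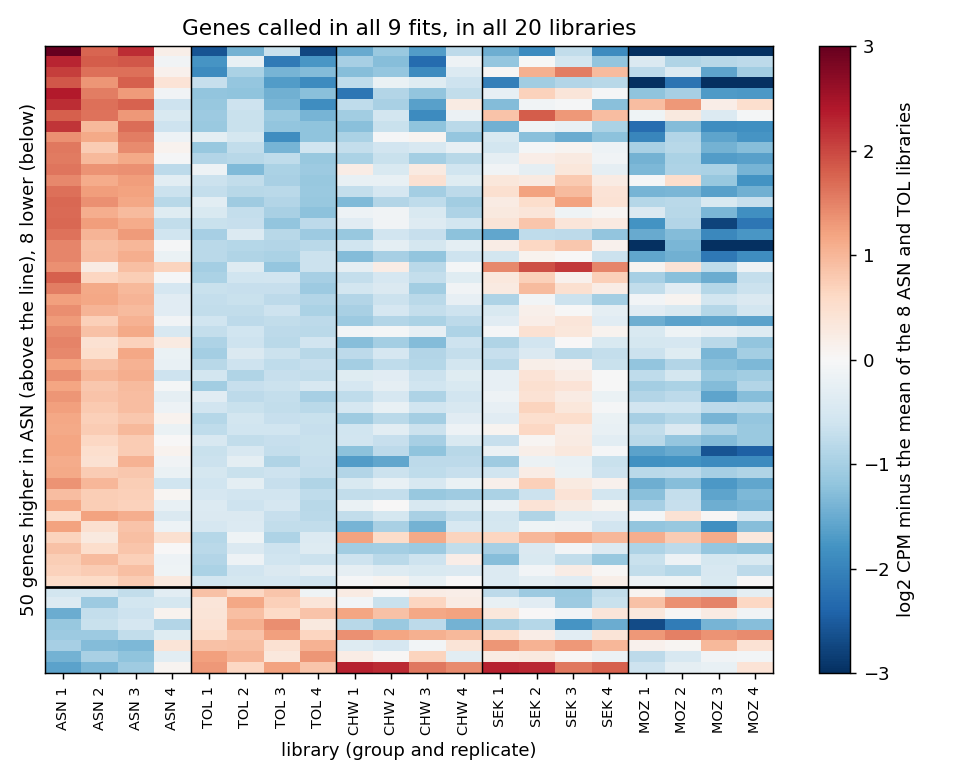
Rows are the 58 genes called in all 9 fits, ordered by the difference between ASN and TOL, and columns are the 20 libraries. Colour is log2 CPM minus the gene's mean over the 8 ASN and TOL libraries, with red higher and blue lower and the scale ending at 3 and -3. ASN replicates 1 to 3 are red in the upper block, while ASN replicate 4 is pale and TOL is blue.

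The largest increase that held was in AARA000610. It had 252, 87.5, 121 and 29.2 CPM in ASN replicates 1 to 4 and 4.17, 9.66, 16.3 and 3.79 CPM in TOL replicates 1 to 4. Every ASN library lay above every TOL library, and the ASN libraries themselves spanned more than the gap between the lowest ASN and the highest TOL library. The mean was 122.6 ± 94.5 CPM in ASN and 8.47 ± 5.85 CPM in TOL (SD, n = 4 each). On the log2 scale the gene was higher by 3.85 (SE 0.540, edgeR adjusted p 7e-04), in 4 of 4 ASN libraries. Over the 8 repeats the log2 fold change of AARA000610 ran from 3.23 without ASN replicate 1 to 4.38 without TOL replicate 3. Every library of the other groups lay below the lowest ASN library, with 10.99 ± 3.12 CPM in CHW, 9.69 ± 4.07 CPM in SEK and 1.93 ± 0.707 CPM in MOZ (SD, n = 4 each).

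The largest decrease that held was in AARA005478. It had 20.2, 27.7, 23.5 and 43.7 CPM in ASN replicates 1 to 4 and 127, 110, 67.9 and 135 CPM in TOL replicates 1 to 4. The populations did not overlap, with ASN replicate 4 again the ASN library nearest to TOL. The means were 28.8 ± 10.4 CPM and 110.02 ± 29.9 CPM (SD, n = 4 each). The gene's log2 difference was -1.93 (SE 0.256, edgeR adjusted p 7e-04), lower in 4 of 4 ASN libraries. It ran from -2.20 without ASN replicate 4 to -1.80 without ASN replicate 1. AARA005478 had 62.3 ± 18.1 CPM in CHW, 58.6 ± 8.51 CPM in SEK and 42.8 ± 9.45 CPM in MOZ (SD, n = 4 each), between both populations.

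The largest changes among calls that did not hold rested on few counts. AARA005815 had 0, 5, 10 and 12 counts in ASN replicates 1 to 4 and 0, 1, 1 and 0 counts in TOL replicates 1 to 4. The populations overlapped, as ASN replicate 1 was at 0 like TOL replicates 1 and 4. It was called higher in ASN with all libraries (edgeR adjusted p 0.0391) and again in only 1 repeat. Pooled over the libraries the ratio of ASN to TOL was 11.9, with a 95% interval for counting error of 2.99 to 103. AARA005815 had 3.05 to 3.58 CPM in the 4 SEK libraries, above the highest ASN library at 0.654 CPM. It did not pass the gene filter in the ASN and TOL libraries alone or in the first sequencing run alone. It was tested because the filter used all libraries, SEK among them.

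AARA008234 had 79 counts in TOL replicate 1, 2, 4 and 1 counts in TOL replicates 2 to 4, and 0, 2, 0 and 0 counts in ASN replicates 1 to 4. TOL replicate 1 held 91.9% of the 86 TOL counts. The gene was called lower in ASN with all libraries (edgeR adjusted p 0.0366) and in 3 of the 8 repeats, and without TOL replicate 1 its adjusted p was 0.498. The pooled ratio of TOL to ASN was 48.7, with a 95% interval for counting error of 13.1 to 409. Outside these populations AARA008234 was highest in SEK, with 3.78, 0.199, 2.5 and 2.44 CPM in SEK replicates 1 to 4. Like AARA005815, it passed the gene filter over all libraries but not in the ASN and TOL libraries alone or the first sequencing run alone. Other genes had counts in TOL replicate 1 and few or none in the other TOL libraries. In all, 114 genes had at least 10 counts in it and at most 2 counts in each other TOL library. Of these, 69 were tested and 0 were called. The same count was not made for other libraries. Without these genes in the table the test called 157 genes.

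**Figure D4:**
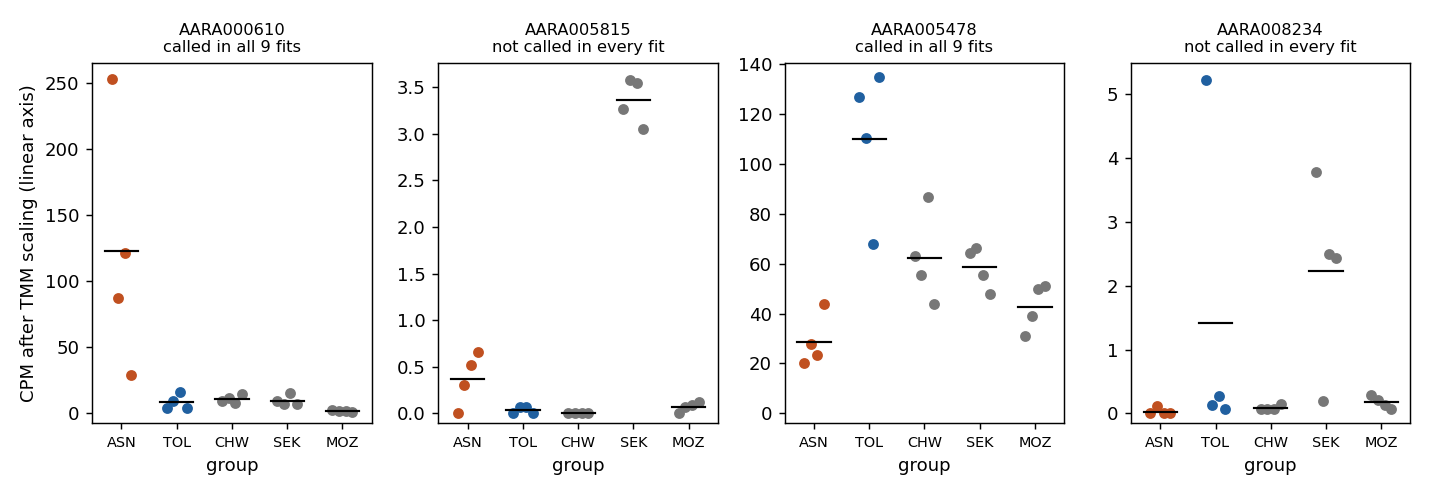
Points give the CPM of each library on a linear axis for the 4 nuclear genes named in the text, by group, in replicate order from left to right, and lines give the group means. AARA000610 and AARA005478 separate ASN from TOL, while AARA008234 is high in TOL only in replicate 1, at 5.23 CPM.

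The same 58 genes were placed against the other groups. All SEK and MOZ libraries and CHW replicates 3 and 4 came from the second sequencing run, so SEK and MOZ cannot be told apart from that run. In the 50 higher genes the CHW mean was nearer to the TOL mean than to the ASN mean in 49, the MOZ mean in 48 and the SEK mean in 26. In the 8 lower genes it was nearer to TOL in 6 for CHW, 5 for SEK and 4 for MOZ. The mean log2 CPM of the 50 genes was 4.76 to 5.05 in the CHW libraries, 5.19 to 5.73 in the SEK libraries and 4.21 to 4.80 in the MOZ libraries. ASN replicate 4, at 5.37, lay within the SEK range, and ASN replicates 1 to 3 lay above all 17 other libraries. By gene, ASN replicates 1 to 3 were above all 17 other libraries in 44 of the 50, as in 426 of all genes tested (3.87%). These genes were chosen because ASN lay above TOL, so a high ASN level is fixed in part by the choice.

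Tests against the other groups share the ASN or the TOL libraries and are given side by side. Of the 50 genes, 45 were called higher in ASN than in CHW (2.82% of all genes tested), with a median log2 fold change of 1.53, while 0 were called higher and 1 lower in TOL than in CHW (2.72% and 0.781%), with a median of -0.18. Against SEK, 21 were called higher in ASN (4.87%), while in TOL 0 were called higher and 12 lower (5.84% and 2.14%). The medians were 0.85 and -0.75, and the SEK mean lay between both populations in 44 of the 50. In either direction the test called 7.62% of all genes between ASN and SEK and 7.99% between TOL and SEK. Against MOZ, 45 were called higher in ASN (8.28%), while 5 were called higher and 2 lower in TOL (7.73% and 6.35%). Of the 8 genes lower in ASN, 4 were called lower than in CHW (0.817%), 4 lower than in SEK (2.75%) and 3 lower than in MOZ (7.49%). For TOL, 1 of the 8 was called higher than CHW, 3 higher and 1 lower than SEK, and 3 higher than MOZ.

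The levels of the 50 genes were also correlated with each other in the remaining groups, whose libraries entered the fits through the gene filter, the scaling and the spread. After each group's mean was removed, the mean Pearson correlation between pairs of these genes was 0.4 over the 12 CHW, SEK and MOZ libraries, against 0.0012 over all pairs of genes tested. For the 65 higher genes that did not hold it was 0.143, for the 8 lower genes that held 0.149, and for the 30 lower genes that did not hold 0.0285. Within ASN the value of the 50 genes was 0.888 and within TOL 0.166, each over 4 libraries. For the 65 higher genes that did not hold these were 0.644 and 0.146, and over all genes tested 6.9e-05 and 0.000876. ASN replicate 4 was the lowest ASN library in 48 of the 50 genes, so the ASN value restates that position in part. These are descriptions of genes that share their libraries and scaling.

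The mitochondrial genes did not separate Asendabo from Tolay at the precision of these libraries. None of the 13 protein-coding genes was called. With all 20 libraries, edgeR, DESeq2 and limma with voom each found 0 of them at an unadjusted p under 0.05. All 13 had lower values in ASN, with a median log2 fold change of -0.31 and a range of -0.60 (ND4L) to -0.18 (ATP6). In the fit of all 20 libraries their standard errors were 0.310 to 0.670, so changes of such size could not be told from that spread. With the ASN and TOL libraries alone some errors were smaller (ND1 0.194, COX1 0.203) and others larger (ND2 0.791, ND3 0.587). There ND1 was at -0.40 (edgeR adjusted p 0.277), and 0 of the 13 were called. In 0 of the 13 genes were the groups separated, against 11.4% of all genes tested. The median was -0.17 with library totals alone, -0.17 without TOL replicate 1, -0.19 without ASN replicate 2 and -0.50 without both ASN replicate 4 and TOL replicate 4.

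COX1, the catalytic subunit of cytochrome oxidase, had 60949, 50159, 59534 and 51254 CPM in ASN replicates 1 to 4. In TOL replicates 1 to 4 it had 76842, 74392, 67524 and 44480 CPM. TOL replicates 1 to 3 were above every ASN library and TOL replicate 4 was below them all, and the log2 difference was -0.25 (SE 0.412, edgeR adjusted p 0.79). COX2 and COX3, the other core subunits of the same enzyme, had log2 fold changes of -0.23 (SE 0.373) and -0.31 (SE 0.426). CYTB, the cytochrome b of complex III, was at -0.30 (SE 0.392). In 9 of the 13 genes TOL replicate 4 was the lowest TOL library, and in 10 of them TOL replicate 1 was the highest.

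Of the genes of complex I, the NADH dehydrogenase, ND2 and ND3 had the largest standard errors of all 13 genes. In the fit of all 20 libraries the other 5 had the smallest. ND2 had 966, 111, 1418 and 1325 CPM in ASN replicates 1 to 4 and 2314, 139.7, 1292 and 785 CPM in TOL replicates 1 to 4. Replicate 2 was thus far below the rest in both populations, and still had 1843 counts in ASN and 2098 in TOL. The log2 difference of the populations was -0.25 (SE 0.670, edgeR adjusted p 0.882). Without ASN replicate 2 it was 0.13 and without TOL replicate 1 it was 0.37. ND3 had 275 and 304 CPM in the same pair of libraries, against 1086 to 1628 CPM in the rest of ASN and 1217 to 2128 CPM in the rest of TOL. ND6 went the other way, with replicate 2 the highest library of each group at 77.3 CPM in ASN and 116 CPM in TOL. The other complex I genes had log2 fold changes of -0.41 (ND1, SE 0.310), -0.39 (ND4, SE 0.356), -0.31 (ND5, SE 0.360) and -0.60 (ND4L, SE 0.327).

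ATP6 and ATP8 encode subunits of the proton channel of ATP synthase. ATP6 had 3857 CPM in ASN replicate 2 and 13010 to 14603 CPM in the other ASN libraries, and 7655 to 19403 CPM in TOL. ATP8 was low everywhere, with 6.76 to 8.91 CPM in ASN and 5.13 to 16.01 CPM in TOL, and a log2 difference of -0.53 (SE 0.406, edgeR adjusted p 0.506). In the reference annotation ATP8 overlaps ATP6 and ND4L overlaps ND4, and how reads in the overlaps were counted is not given in the sources used here, so the values of these genes are uncertain. Of the ribosomal RNA genes, ASK67_gr02 differed by -0.30 on the log2 scale (SE 0.256, edgeR adjusted p 0.556) and ASK67_gr01 by 0.17 (SE 0.493, edgeR adjusted p 0.892).

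**Figure D5:**
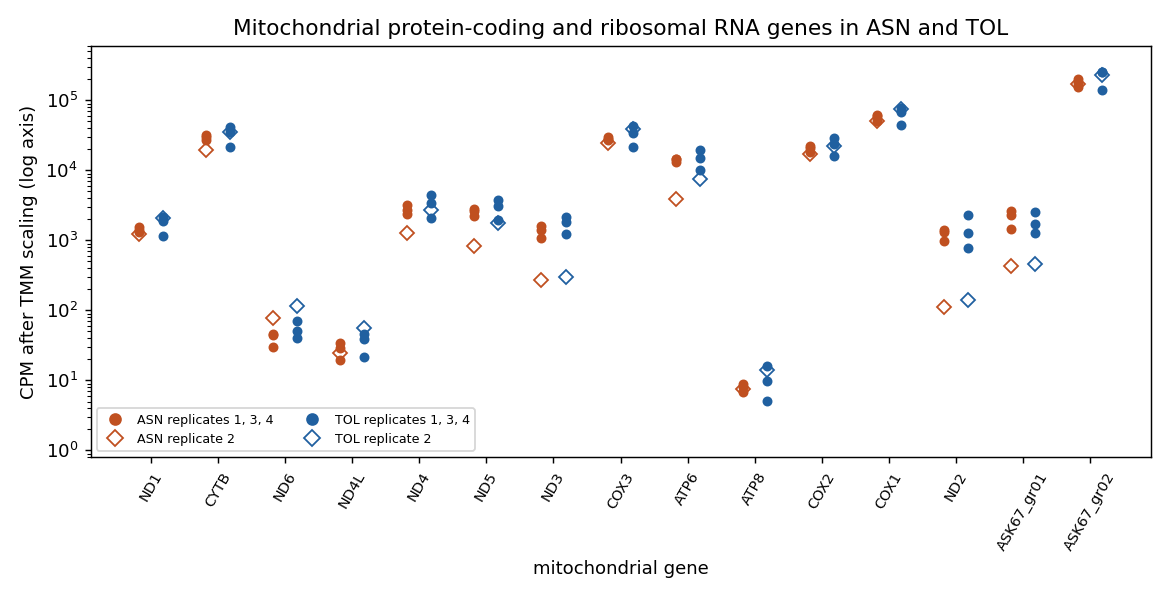
Points give the CPM of each ASN and TOL library on a log axis for the 13 mitochondrial protein-coding and 2 ribosomal RNA genes, with replicate 2 of each population drawn as an open diamond. The populations overlap in every gene, and the diamonds lie far below the other points for ND2 and ND3.

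As a share of all counts, the 13 protein-coding genes took 14.1%, 10.8%, 14.5% and 14.7% in ASN replicates 1 to 4, and 16.9%, 14.97%, 15.1% and 11.96% in TOL replicates 1 to 4. The widest 95% Wilson interval of such a share was 0.0328 percentage points, for counting error only, and the spread between libraries was far larger. The populations overlapped, at 13.5% ± 1.83 in ASN and 14.7% ± 2.06 in TOL (SD, n = 4 each), a difference of -1.23 percentage points (exact 2-sided permutation p 0.343, adjusted 0.343 over 4 shares, smallest possible 0.0286). The difference was -0.327 points without ASN replicate 2, -0.502 without TOL replicate 1 and -2.16 without TOL replicate 4. ASK67_gr02 took 15.98% ± 0.631 in ASN and 17.9% ± 2.82 in TOL (SD, n = 4 each, exact permutation p 0.229, adjusted 0.343). TOL replicate 4, at 13.8%, was below every ASN library, and the other TOL libraries, at 18.4% to 20.2%, were above them all.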

How the data were processed

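The deposited table gives raw counts for each gene: all its values are whole numbers, and library sums differ. FastQC 0.11.4, HISAT2, Cufflinks, SAMtools 1.5 and HTSeq 0.9.0 are named in the submitters' processing notes, without role or order. For the counting, neither build, annotation nor strand setting is given in the sources used here. The table has 13867 IDs. A RefSeq table of the assembly AaraD3 named the 37 mitochondrial IDs and 0 of the 13830 AARA IDs, so the planned counts of gene families and marker genes were not made.

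edgeR 4.0.16 in R 4.3.3 was used with filterByExpr by group, which kept 11018 genes, TMM (trimmed mean of M values) scaling and a quasi-likelihood model of the 5 groups over all 20 libraries, without covariates. The common biological coefficient of variation was 0.189. Calls needed an adjusted p under 0.05 and a 2-fold change, and standard errors are the log2 fold change divided by the root of F. Repeats without 1 library used the same genes. CPM is after TMM, and log2 CPM has a prior count of 2. DESeq2 1.42.0 and limma 3.58.1 were alternatives. The procedure was also run on simulated data in which genes varied independently. Such data hold no shift shared by many genes of a library, so that run cannot judge the part of single libraries. The labels call replicates biological, without naming separate cultures or collections, so p-values measure the spread between these pools. Members, lists and tests were chosen with earlier results of these data known. Where IDs have no name, the nuclear genes named are those with the largest change in each direction, 1 among the genes that held without overlap and 1 among those that did not hold. The 13 mitochondrial protein-coding and 2 ribosomal RNA genes are described besides.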

Additional observations from a re-analysis of the deposited data

Results flagged for a closer look

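In 50 groups of 4 values (the named genes, shares, scaling factors, depths and the means of the genes that held, in ASN and in TOL), 4 had a highest or lowest library whose gap to the next, divided by the range, passed Dixon's 95% critical value, which chance passes in about 1 in 20. All were ASN replicate 2. Its mitochondrial protein-coding share was 10.8% of counts, against 14.1% to 14.7% in the other ASN libraries. For ND2 it had a log2 CPM of 6.79, where the other ASN libraries had 9.92 to 10.47. For ATP6 it had 11.91, where they had 13.67 to 13.83. Its log2 CPM of AARA008234 was -2.07, where the other ASN libraries were all at -3.09, the value of 0 counts, and rests on 2 counts. Measures of 1 library are not independent.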

How the results depend on the processing

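The count of 153 calls stayed within 1.5 times under other scalings, without a filter, in DESeq2 (204), limma with voom (137), the first run alone (141) and the 8 libraries alone with their own filter (127). It was 617 without the fold requirement, 34 in a test against a fold of 1.5, and 83 to 271 without 1 library, changing over 1.5 times without ASN replicate 1 (83), 3 (86) or 4 (271). Without both ASN replicate 4 and TOL replicate 4 it was 269. In the 8 libraries alone with the replicate number as a block it was 63, 46 higher and 17 lower. That fit called 33 of the 58 genes that held, against 57 in the 8 libraries with their own filter and no block. The replicate numbers were not taken to pair the libraries, as the labels name no pairing. Deviations from the group mean of same-numbered libraries correlated over genes at 0.04, 0.12, -0.04 and 0.24, against -0.21 to 0.08 for differing numbers. These values do not decide whether the numbers pair the libraries. Of the libraries, 3 of 4 ASN and 2 of 4 TOL libraries correlated best with their own number. For single genes the block narrowed the error, from 0.587 to 0.108 for ND3 and from 0.345 to 0.102 for ND6 (edgeR adjusted p 0.218 and 0.0671). The 58 genes that held became 96 with library totals alone, 201 without the fold requirement, 0 with the 8 libraries alone, 141 with ASN replicate 4 out of every fit and 21 with TOL replicate 1 out of every fit. Of these, 55, 58, 0, 58 and 20 were among the 58. Calls without overlap ran from 69 (ASN replicate 1) to 262 (ASN replicate 4) without 1 library. Among uncalled genes, leaving out 1 library turned the sign of ND3 (-0.64 to 0.015), ATP6 (-0.37 to 0.11), ND2 (-0.62 to 0.37) and ASK67_gr01 (-0.13 to 0.56). The cause of these changes was not tested. Leaving out ASN replicate 4 with TOL replicate 4, leaving either ASN replicate 4 or TOL replicate 1 out of every fit, and the repeats of the calls without overlap were chosen after seeing the data. AARA000610 and AARA005478 were called under all 21 alternatives, with edgeR adjusted p up to 0.0458 and 0.039. The 8 repeats without 1 library are among these alternatives, and both genes were chosen as called in them. The repeats of the 8 libraries alone are not among them. There, 0 genes were called without ASN replicate 2 or 3 or TOL replicate 1, 2 or 3.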
